A study of Mus musculus with 12 samples.

Results

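Immunoglobulin G bound to a cell is read by a small family of receptors, and complement C1q reads the same antibody from the fluid phase. Expression of 9 genes of this antibody effector system was examined in mouse tumours from mice with or without antibody depletion of CD4 T cells: the activating receptors Fcgr1, Fcgr3 and Fcgr4, their signalling chain Fcer1g, the inhibitory receptor Fcgr2b, the neonatal Fc receptor Fcgrt, and the C1q chains C1qa, C1qb and C1qc. They were grouped by function, as 9 of the 35999 gene rows of the series, with earlier results of these data known. The tumours were AB1-HA, a transplantable mesothelioma line carrying an influenza haemagglutinin antigen, grown under the skin of male BALB/c mice aged 8 to 10 weeks. In the anti-CD4 group, 6 tumours came from mice dosed with 100 µg of anti-CD4 monoclonal antibody on days -3, 0 and 7, where day 0 is tumour inoculation. In the PBS group, 6 tumours came from mice given the buffer alone on the same days, and all 12 tumours were removed on day 9. The PBS mice received no antibody, so the loss of CD4 T cells and the presence of an injected antibody, itself a possible ligand of these receptors, cannot be told apart. No label ties a tumour to a separate animal, so p-values measure the spread between these tumours.

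Activating Fc gamma receptors pair with the common gamma chain, whose tyrosine motif recruits the kinase Syk once antibody clusters the receptors, and this starts phagocytosis, cytokine release or killing by macrophages, neutrophils and NK cells. Fcgr2b is the single Fc gamma receptor with an inhibitory tyrosine motif, which recruits the phosphatase encoded by Inpp5d and restrains the activating receptors on the same cell. C1q is built from equal numbers of A, B and C chains, is made largely by macrophages and dendritic cells, and starts the classical complement pathway when it binds clustered antibody. Fcgrt works inside cells, where it rescues immunoglobulin G and albumin from degradation.

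Total counts ran from 34.45 to 62.06 M in anti-CD4 tumours and from 30.75 to 41.93 M in PBS tumours. Levels are given as CPM, counts scaled to a common library size after adjustment by TMM (trimmed mean of M values). Cd4, the target of the antibody, had 1.31 ± 0.50 CPM in anti-CD4 tumours and 6.31 ± 2.34 CPM in PBS tumours (SD, n = 6 each; edgeR adjusted p = 0.00298). Msln, the mesothelin gene of mesothelial cells, was present in all tumours, at 92.6 to 155 CPM in anti-CD4 tumours and 94.7 to 140 CPM in PBS tumours.

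Of the 9 genes, all of which had enough counts to be tested, 1 fell in the anti-CD4 tumours, the inhibitory receptor Fcgr2b, and none rose. Among all 17940 genes tested, 5.28% were called in either direction, 2.33% lower and 2.95% higher. All 9 log2 fold changes were negative, with a median of -0.49, against a median of -0.00033 and a share of 50.1% negative among all genes tested. The general leukocyte gene Ptprc was at a similar value of -0.55 (SE 0.24, edgeR adjusted p = 0.161), with means of 79.7 CPM in anti-CD4 and 117 CPM in PBS tumours. At an unadjusted p under 0.05 stood 6 of the 9, against 28% of all genes. These 9 counts come from the same cells and the same libraries and are not independent of each other. In bulk tumours, fewer cells that express a gene and less of its RNA per cell cannot be told apart.

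**Figure D1:**
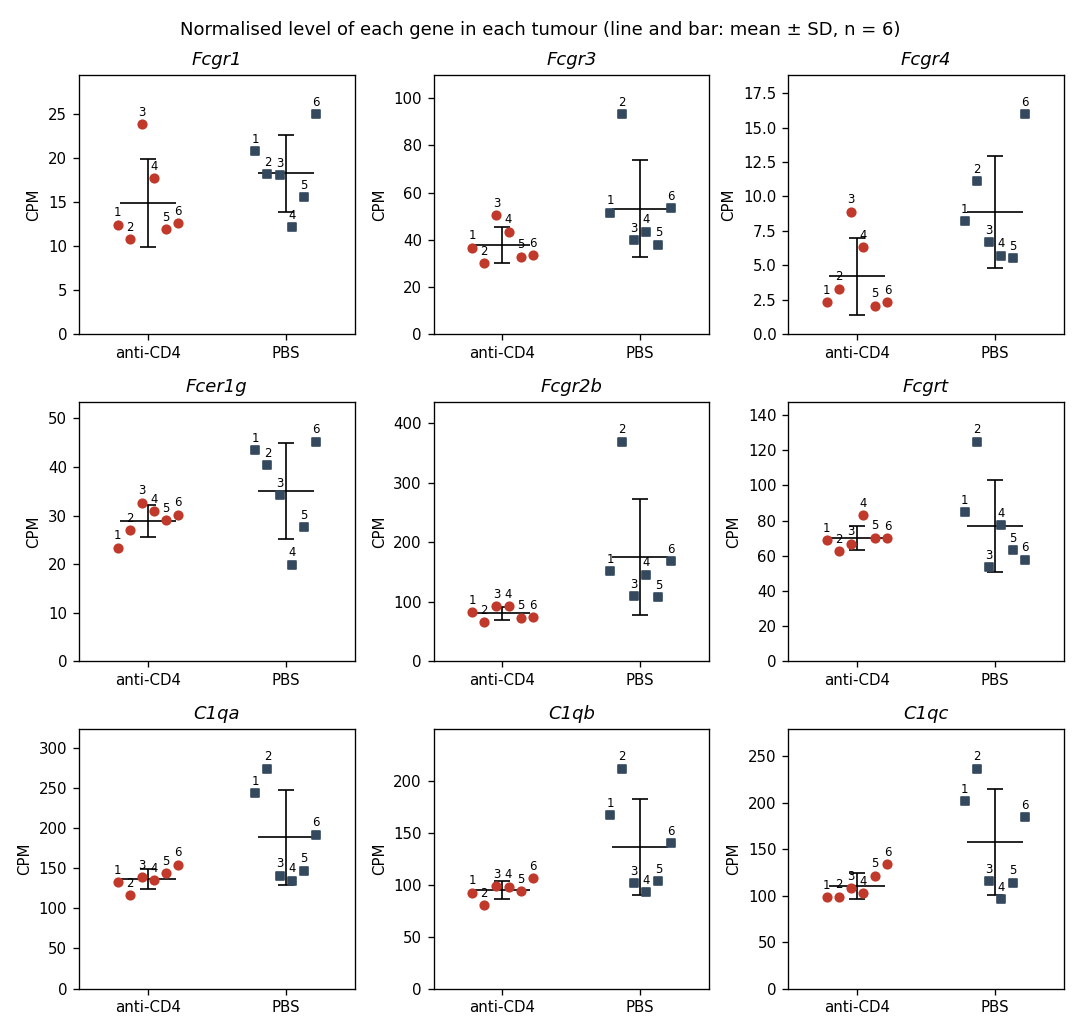
Normalised level (CPM, axes from 0) of each of the 9 genes in each anti-CD4 tumour (red circles) and PBS tumour (dark squares), numbered by tumour, with the mean ± SD. Fcgr2b is the gene whose groups do not overlap, at 65.9 to 93.0 CPM in anti-CD4 and 108 to 369 CPM in PBS tumours.

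Fcgr2b lies on chromosome 1 from 170958617 to 170976547 on the minus strand (GRCm38). It had 65.9, 78.4 and 93.0 CPM as the lowest, median and highest values in anti-CD4 tumours, against 108, 148 and 369 CPM in PBS tumours. Every anti-CD4 tumour was below every PBS tumour, which was so for 1.19% of all genes tested. The means were 80.3 ± 11.1 CPM in anti-CD4 and 175 ± 97.8 CPM in PBS tumours (SD, n = 6 each), and the level fell to 45.9% of that in PBS tumours (95% interval 29.7% to 70.8%). The log2 fold change was -1.12 (SE 0.29, edgeR adjusted p = 0.0469), and a two-sided exact permutation test gave p = 0.00216, the lowest value possible with 6 against 6 tumours. The adjusted p lay close to the threshold, and total counts were higher in anti-CD4 tumours (46.4 ± 10.0 M) than in PBS tumours (36.1 ± 4.03 M). With the log2 total as a covariate the log2 fold change was -1.07 and the call was lost (edgeR adjusted p = 0.331), in a fit that called 0.0279% of all genes. The call was kept without anti-CD4 1, PBS 1 or PBS 2 and was lost on leaving out any other tumour (log2 fold change -1.23 to -0.76, edgeR adjusted p = 0.0236 to 0.117). PBS 2, at 369 CPM, stood far above the other PBS tumours (108 to 168 CPM). Without it the log2 fold change was smaller but better determined (-0.76, SE 0.12, edgeR adjusted p = 0.0236), in a fit that called 0.656% of all genes lower.

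Fcgr3, the low-affinity activating receptor of macrophages, neutrophils and NK cells, lies in the same cluster on chromosome 1 from 171051174 to 171064935, also on the minus strand, with Fcgr4 between it and Fcgr2b. Fcgr3 had 30.2, 35.1 and 50.3 CPM as the lowest, median and highest values in anti-CD4 tumours, against 37.9, 47.5 and 93.2 CPM in PBS tumours. The groups overlapped, with 4 of the 6 anti-CD4 tumours below the lowest PBS tumour, and the log2 fold change did not pass (-0.49, SE 0.22, 95% interval -0.97 to -0.02, edgeR adjusted p = 0.166). PBS 2 was again the highest, and without it the log2 fold change was -0.25 (SE 0.13, edgeR adjusted p = 0.219).

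Fcgr2b and Fcgr3 are close relatives, and part of their coding sequence is nearly identical. In the local alignment of the longest coding sequences, 491 of 509 aligned bases were the same (96.5%), with an unbroken shared run of 129 bases. The stretch of 200 coding bases around that run is shown for both genes because sequencing reads from it can hardly be assigned to 1 of them. Both are from GENCODE M21, minus strand, across an intron (Fcgr2b chr1:170966639-170968117, Fcgr3 chr1:171054132-171057828). Capitals mark the 5 bases that differ.
Fcgr2b: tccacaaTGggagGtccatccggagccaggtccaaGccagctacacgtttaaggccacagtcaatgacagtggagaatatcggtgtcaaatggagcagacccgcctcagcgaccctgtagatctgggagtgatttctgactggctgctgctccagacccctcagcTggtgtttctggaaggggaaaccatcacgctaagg
Fcgr3: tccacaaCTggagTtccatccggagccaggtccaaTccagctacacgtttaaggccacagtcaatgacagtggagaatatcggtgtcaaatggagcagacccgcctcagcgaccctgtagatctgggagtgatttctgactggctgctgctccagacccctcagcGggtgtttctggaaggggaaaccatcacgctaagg
Of all distinct words of 31 bases in the transcripts of each gene, 4.15% of those of Fcgr2b were also in Fcgr3, and 13.4% of those of Fcgr3 were also in Fcgr2b. The deposited counts of both genes are fractional, since kallisto shares such reads between genes, so their split is partly an estimate. By comparison, Fcgr2b and Fcgr1 were identical at 61.0% of 441 aligned coding bases, with a longest shared run of 9 bases. The antisense model Gm38204 overlaps 155 exonic bases of Fcgr2b on the other strand and was not analysed here.

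Set against Fcgr2b in the same tumour, Fcgr3 and the sum of the activating receptors were higher in the anti-CD4 tumours. The ratio of Fcgr3 to Fcgr2b counts was 0.444 to 0.542 in anti-CD4 tumours and 0.253 to 0.364 in PBS tumours, so the groups did not overlap. The summed counts of Fcgr1, Fcgr3 and Fcgr4 over those of Fcgr2b were 0.622 to 0.895 in anti-CD4 tumours and 0.332 to 0.589 in PBS tumours, again with no overlap. The mean log2 of this ratio was -0.52 ± 0.19 in anti-CD4 and -1.04 ± 0.32 in PBS tumours (SD, n = 6 each), a difference of 0.51 that stayed between 0.40 and 0.57 on leaving out any tumour. Fcgr3 was the largest part of this sum, with means of 37.8 CPM in anti-CD4 and 53.2 CPM in PBS tumours. Fcgr1 had means of 14.9 and 18.3 CPM in the same order. For Fcgr1 alone the ratio to Fcgr2b was 0.150 to 0.257 in anti-CD4 and 0.0492 to 0.165 in PBS tumours, so the groups overlapped. For Fcgr4 alone the ratio to Fcgr2b was 0.0281 to 0.0959 in anti-CD4 and 0.0302 to 0.0953 in PBS tumours, so the groups overlapped almost wholly. How often ratios of other genes separate the groups was not examined. These ratios are built from the genes themselves and are described without a test. They compare counts, not molecules, because the transcripts differ in length.

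**Figure D2:**
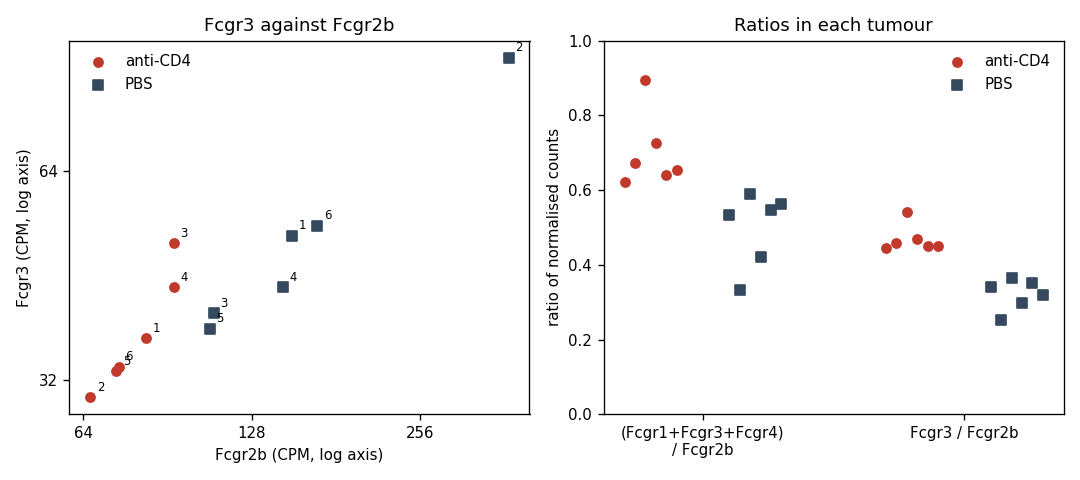
Left, Fcgr3 against Fcgr2b in each tumour (CPM, both axes logarithmic), with anti-CD4 tumours as red circles and PBS tumours as dark squares. Right, ratios of normalised counts in each tumour, where every anti-CD4 tumour (0.622 to 0.895 and 0.444 to 0.542) lies above every PBS tumour (0.332 to 0.589 and 0.253 to 0.364).

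Fcgr4, a receptor for IgG2a and IgG2b on mouse macrophages, monocytes and neutrophils, was the least abundant of the 9 in CPM. It is on chromosome 1 from 171018920 to 171029761. Fcgr4 had 2.06, 2.81 and 8.90 CPM as the lowest, median and highest values in anti-CD4 tumours, against 5.52, 7.44 and 16.0 CPM in PBS tumours. The anti-CD4 tumours were split into 4 with 2.06 to 3.29 CPM, below every PBS tumour, and anti-CD4 3 and 4 with 8.90 and 6.33 CPM, inside the PBS range. The log2 fold change of -1.08 did not pass (SE 0.41, 95% interval -1.98 to -0.18, edgeR adjusted p = 0.121; exact two-sided permutation p = 0.0281). It passed without anti-CD4 3 alone (-1.44, edgeR adjusted p = 0.0484, with 2.03% of all genes called lower) and without both anti-CD4 3 and 4 (-1.83, SE 0.31, edgeR adjusted p = 0.00867, with 3.86% called lower), tumours singled out from their measured values.

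Fcgr1, the high-affinity receptor of monocytes and macrophages on chromosome 3 from 96282909 to 96293969, showed the same pair of tumours apart. Fcgr1 had 10.7, 12.5 and 23.8 CPM as the lowest, median and highest values in anti-CD4 tumours, against 12.2, 18.1 and 24.9 CPM in PBS tumours. Anti-CD4 3 and 4 had 23.8 and 17.7 CPM and the other 4 anti-CD4 tumours 10.7 to 12.6 CPM. The log2 fold change was -0.30 (SE 0.21, 95% interval -0.75 to 0.16, edgeR adjusted p = 0.365) and the interval includes both a fall and a small rise. Without both anti-CD4 3 and 4 it was -0.61 (SE 0.16, edgeR adjusted p = 0.042) and passed, in the fit that called 3.86% of all genes lower. Without PBS 6 it was -0.19 (SE 0.21, edgeR adjusted p = 0.616).

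Fcer1g, the shared signalling chain on chromosome 1 from 171229572 to 171234365, had 23.4, 29.6 and 32.7 CPM as the lowest, median and highest values in anti-CD4 tumours. In PBS tumours these were 19.9, 37.3 and 45.2 CPM, so the anti-CD4 range lay inside that of PBS. Its log2 fold change was -0.28 (SE 0.17, 95% interval -0.66 to 0.09, edgeR adjusted p = 0.293). Per kilobase of the longest coding transcript, Fcer1g had 42.3 ± 4.82 CPM per kb in anti-CD4 and 51.4 ± 14.5 CPM per kb in PBS tumours (SD, n = 6 each). Fcgr3 had 28.1 ± 5.67 and 39.5 ± 15.2 CPM per kb, in the same order of groups. Fcgr2b had 22.6 ± 3.14 CPM per kb in anti-CD4 tumours, and 49.4 ± 27.6 CPM per kb in PBS tumours. Fcgr1 (5.74 ± 1.93 and 7.05 ± 1.69 CPM per kb) and Fcgr4 (3.35 ± 2.23 and 7.05 ± 3.22 CPM per kb) were lowest in both groups. On this scale, compared within each tumour, Fcgr2b stood below Fcgr3 in every anti-CD4 tumour and above it in every PBS tumour. The ranges of these neighbours over the tumours of a group overlapped in both groups. With the length of all exons together instead, Fcgr2b was at 13.9 and 30.2 CPM per kb and Fcgr3 at 21.8 and 30.7 CPM per kb, in the same order of groups. The order in PBS tumours thus depends on the length used.

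**Figure D3:**
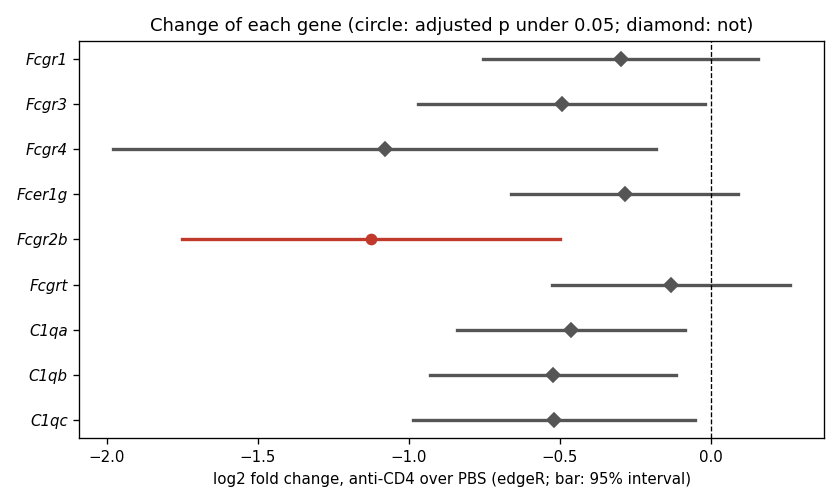
Log2 fold change of each gene, anti-CD4 over PBS, from the edgeR fit with its 95% interval. Fcgr2b (red circle, -1.12) passed at adjusted p = 0.0469. The other 8 (grey diamonds) did not, and the intervals of Fcgr1, Fcer1g and Fcgrt include 0.

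The C1q chains varied together over the tumours and were lower in the mean of anti-CD4 tumours without passing the test. C1qa, C1qc and C1qb lie side by side on chromosome 4 between 136880129 and 136898803, all on the minus strand. C1qa had 117, 137 and 155 CPM as the lowest, median and highest values in anti-CD4 tumours, against 135, 170 and 274 CPM in PBS tumours. The anti-CD4 values are tightly grouped and overlap PBS 3, 4 and 5, while PBS 1, 2 and 6 lie above all of them. C1qb had 80.2, 96.0 and 106 CPM in anti-CD4 tumours, against 93.1, 122 and 212 CPM in PBS tumours, and C1qc had 98.0, 105 and 134 CPM, against 96.2, 150 and 236 CPM. The same 3 PBS tumours were above every anti-CD4 tumour in all 3 chains. The coefficient of variation of C1qa was 9.28% in anti-CD4 and 31.2% in PBS tumours.

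The log2 fold changes were -0.46 for C1qa (SE 0.17, 95% interval -0.84 to -0.08, edgeR adjusted p = 0.116), -0.52 for C1qb (SE 0.19, -0.93 to -0.11, adjusted p = 0.104) and -0.52 for C1qc (SE 0.21, -0.98 to -0.05, adjusted p = 0.142). The estimated levels were 72.6%, 69.6% and 69.9% of those in PBS tumours. DESeq2 called C1qa and C1qb lower (adjusted p = 0.04 and 0.0276) and not C1qc, in a fit that called 6.45% of all genes lower. By limma voom with sample weights the log2 fold changes were smaller and did not pass, at -0.25 for C1qa, -0.33 for C1qb and -0.25 for C1qc (adjusted p = 0.204, 0.133 and 0.32). Without PBS 2 the edgeR estimates were -0.32, -0.35 and -0.36. The proportions of the chains were similar in all tumours. The ratio of C1qb to C1qa counts was 0.651 to 0.727 in anti-CD4 and 0.685 to 0.771 in PBS tumours, and that of C1qc to C1qa was 0.738 to 0.864 in anti-CD4 and 0.715 to 0.959 in PBS tumours. Over the 12 tumours, log2 CPM of C1qa and C1qb had Pearson r = 0.991 and Spearman rho = 0.958 (permutation p = 2e-05 and 3e-05, adjusted over 36 pairs of genes 0.00036 and 0.00054). Without PBS 1 and 2, the tumours farthest from the median of C1qa, r was 0.973. Within the groups r was 0.922 in anti-CD4 tumours (n = 6, exact permutation p = 0.0222) and 0.993 in PBS tumours (n = 6, exact permutation p = 0.00139). Per kilobase of the longest coding transcript C1qa was the highest of the 9, at 132 ± 12.2 CPM per kb in anti-CD4 and 182 ± 56.7 CPM per kb in PBS tumours. C1qc followed with 91.7 ± 12 and 131 ± 47.4 CPM per kb and C1qb with 87.2 ± 7.96 and 125 ± 42.7 CPM per kb, which do not differ beyond their spread. No sequence word of 31 bases in the C1q chains, Fcgr1 or Fcer1g occurred in another annotated gene.

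Fcgrt, on chromosome 7 from 45092990 to 45103851, differed least. It had 62.5, 69.5 and 83.0 CPM as the lowest, median and highest values in anti-CD4 tumours, against 53.7, 70.3 and 125 CPM in PBS tumours. Every anti-CD4 tumour lay inside the PBS range, and the log2 fold change was -0.13 (SE 0.18, 95% interval -0.52 to 0.26, edgeR adjusted p = 0.659). Its sign turned without PBS 2 (0.07). Per kilobase of the longest coding transcript it had 39.7 ± 3.88 CPM per kb in anti-CD4 and 43.5 ± 14.9 CPM per kb in PBS tumours (SD, n = 6 each).

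Most of the 9 genes varied over the tumours together with a score of macrophage genes. The score was the mean log2 CPM of 18 macrophage and monocyte markers, such as Adgre1 and Csf1r, none of them among the 9. It ran from 5.51 to 5.81 in anti-CD4 tumours and from 5.69 to 6.33 in PBS tumours, with PBS 1, 2 and 6 highest, and the summed markers from 1975 to 2312 CPM and from 2060 to 3613 CPM in the same order. Over the 12 tumours, 8 of the 9 genes passed by Pearson's r and 8 by Spearman's rho, 7 of them by both (permutation p adjusted over 18 relations, 9 to each of 2 scores). These relations include the difference between groups. Within anti-CD4 tumours (n = 6) r ran from 0.274 for C1qc (exact permutation p = 0.579) to 0.845 for Fcgrt. There C1qb and Fcgrt alone stood at an unadjusted p under 0.05. Within PBS tumours (n = 6) r ran from 0.514 for Fcgr1 (exact permutation p = 0.321) to 0.990 for C1qb. In that group C1qa, C1qb, C1qc, Fcgr2b and Fcgr3 stood at an unadjusted p under 0.05.

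C1qb followed the macrophage score most closely (r = 0.978, rho = 0.888, permutation p = 3e-05 and 0.00026, adjusted p = 0.00045 and 0.00234). Its r was 0.926 without PBS 1 and 2, 0.835 within anti-CD4 tumours (n = 6, exact permutation p = 0.0403) and 0.990 within PBS tumours (n = 6, exact permutation p = 0.00139). For Fcgr2b r was 0.903 (rho = 0.797, permutation p = 0.00031 and 0.00295, adjusted p = 0.000797 and 0.01) and 0.726 without PBS 1 and 2. Fcgr2b reached r = 0.708 within anti-CD4 tumours (n = 6, exact permutation p = 0.119) and 0.899 within PBS tumours (n = 6, exact permutation p = 0.0194). For Fcgrt r was 0.703 (rho = 0.420, permutation p = 0.0171 and 0.176, adjusted p = 0.0307 and 0.213) and -0.07 without PBS 1 and 2, so the relation over all tumours rests on those. Within the groups r was 0.845 in anti-CD4 tumours (n = 6, exact permutation p = 0.0431), which do not include them, and 0.773 in PBS tumours (n = 6, exact permutation p = 0.0583).

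With the macrophage score as a covariate in the edgeR fit, the difference between groups in the 3 C1q chains was near 0, at -0.02 for C1qa (SE 0.09), -0.03 for C1qb (SE 0.07) and 0.00073 for C1qc (SE 0.13). Fcgr3 was at -0.0016 (SE 0.13) in that fit. Fcgr2b remained lower by estimate, at -0.47 on the log2 scale (SE 0.15, edgeR unadjusted p = 0.00934, adjusted p = 0.119), and Fcgr4 was at -0.56 (SE 0.45, adjusted p = 0.436), and neither passed. With this covariate 0.0502% of all genes were called in either direction. Because the score itself is lower in the mean of anti-CD4 tumours, this fit shares the group difference between the score and the group.

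**Figure D4:**
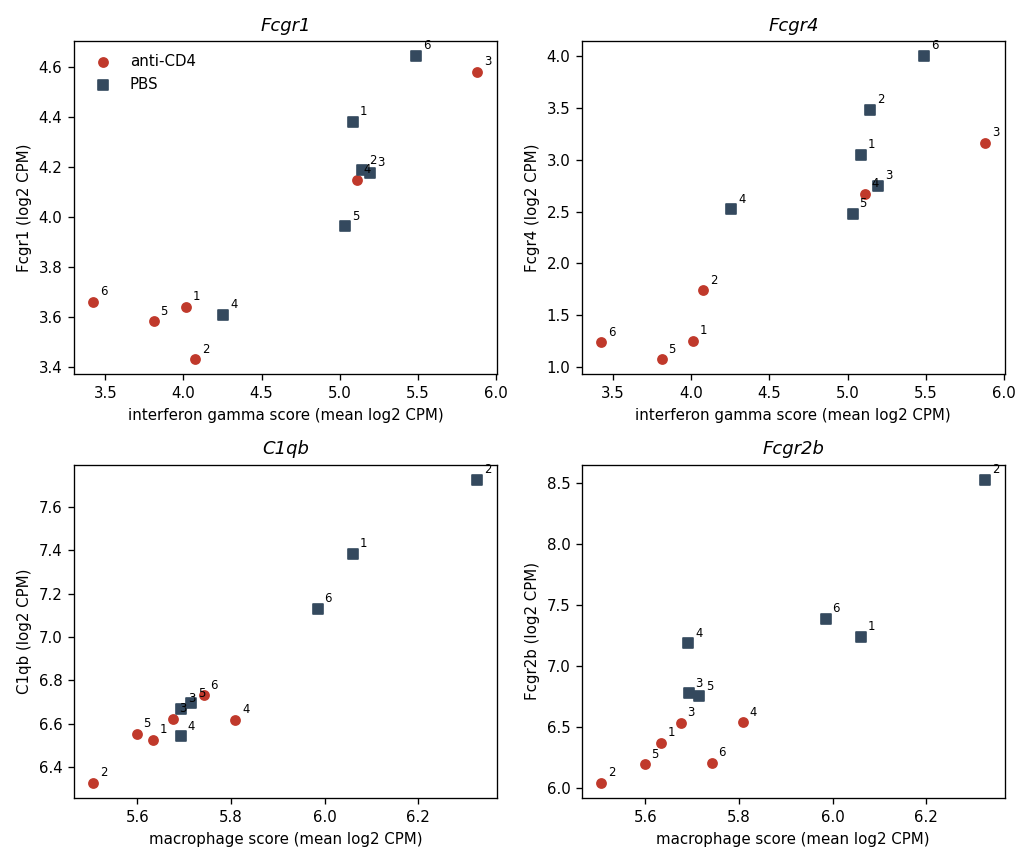
Log2 CPM of Fcgr1 and Fcgr4 against the interferon gamma score (top) and of C1qb and Fcgr2b against the macrophage score (bottom), both scores as mean log2 CPM, for anti-CD4 tumours (red circles) and PBS tumours (dark squares) numbered by tumour. Anti-CD4 3 and 4 lie apart from the other anti-CD4 tumours in the top panels, with scores of 5.88 (above every PBS tumour) and 5.11. PBS 4, with a score of 4.26, lies on the low side of the score with the other anti-CD4 tumours. In the bottom panels PBS 1, 2 and 6 are highest in both score and gene.

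Fcgr1 and Fcgr4 are known as genes induced by interferon gamma, and their levels were set beside a score of 22 interferon gamma response genes, such as Irf1 and Cxcl9. None of the 22 was called by edgeR, with 3 at an unadjusted p under 0.05, and all 22 log2 fold changes were negative, with a median of -0.40. The score reached 5.88 in anti-CD4 3 and 5.11 in anti-CD4 4. It lay between 3.42 and 4.08 for anti-CD4 1, 2, 5 and 6, and between 4.26 and 5.49 for PBS tumours. The scores of the 12 tumours lay on both sides of a gap, with 5 tumours (4 anti-CD4, 1 PBS) at 3.42 to 4.26 and 7 tumours (2 anti-CD4, 5 PBS) at 5.03 to 5.88, so no r over all tumours is given. Among the 7 tumours above the gap, r with Fcgr1 was 0.794 (rho = 0.714, exact permutation p = 0.0248 and 0.0881, adjusted over the 9 genes 0.223 and 0.493) and 0.338 without PBS 6 and anti-CD4 3. With Fcgr4 it was 0.459 (rho = 0.679, exact permutation p = 0.307 and 0.109, adjusted p = 0.841 and 0.493). Within the 7 tumours no relation of the 9 genes to this score passed, and the 5 below the gap are too few to test. C1qa was at 139 and 135 CPM in anti-CD4 3 and 4, within the 117 to 155 CPM of the other anti-CD4 tumours.

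The 250 bases before the start site of the genes were searched for 3 short motifs known from interferon and myeloid gene control, on both strands, in RefSeq's table for GRCm38.p6, where 8 of the 9 genes matched (not C1qa). The gamma-activated site TTCNNNGAA was present in Fcgr1 alone, 109 bases before its start, and in 7.02% of all 32851 promoter windows. The interferon-stimulated element GAAANNGAA was present in Fcgr4 alone, 73 bases before its start, and in 7.13% of all windows. GAGGAA, the core bound by the myeloid factor PU.1, was present in Fcgr1, Fcgr3, Fcgr4, C1qb and C1qc, 5 of the 8 matched genes, against 23.3% of all windows. Within the Fcgr1 and Fcgr4 windows the motifs did not overlap. In GENCODE M21, 187 of the 250 bases of the Fcgr2b window and 151 of those of C1qc lay in exons of the same gene. The Fcgr3 window counted here (chr1:171059404-171059653) lay inside the gene as annotated there. The windows of these genes are thus not wholly before the annotated gene. A match describes letters and not a bound site, and the reference sequence is that of C57BL/6J, whereas the mice were BALB/c. The windows of Fcgr1 (chr3:96293970-96294219, minus strand) and Fcgr4 (chr1:171018676-171018925, plus strand) are shown because these genes differed most between the anti-CD4 tumours, and that of C1qb (chr4:136886201-136886450, minus strand) because it followed the macrophage score. Capitals mark the motifs.
Fcgr1: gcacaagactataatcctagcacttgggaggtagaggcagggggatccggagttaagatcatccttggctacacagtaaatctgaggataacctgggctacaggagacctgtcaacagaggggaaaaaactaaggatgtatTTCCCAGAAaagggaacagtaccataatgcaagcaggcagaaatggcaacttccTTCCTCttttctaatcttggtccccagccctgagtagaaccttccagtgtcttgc
Fcgr4: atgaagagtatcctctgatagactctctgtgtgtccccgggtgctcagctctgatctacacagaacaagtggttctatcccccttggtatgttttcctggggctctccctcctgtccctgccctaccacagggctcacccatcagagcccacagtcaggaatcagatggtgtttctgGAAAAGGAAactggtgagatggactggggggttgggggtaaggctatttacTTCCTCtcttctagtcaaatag
C1qb: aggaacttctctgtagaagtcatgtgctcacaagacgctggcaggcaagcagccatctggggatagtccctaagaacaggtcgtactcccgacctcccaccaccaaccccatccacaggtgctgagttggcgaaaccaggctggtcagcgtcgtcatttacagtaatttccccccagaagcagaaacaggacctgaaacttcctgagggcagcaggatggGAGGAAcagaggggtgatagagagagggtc

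The genes most like each of the 9 over the 12 tumours, by Pearson's r of log2 CPM among genes with a mean log2 CPM of at least 1, are given as a description, since the highest of so many coefficients carries no test. For Fcgr2b they were Ccl8, a chemokine (0.980), Hfe (0.973) and Cd84, a leukocyte adhesion receptor (0.971). Of these Cd84 was itself called lower (log2 fold change -0.53, edgeR adjusted p = 0.0337), and its r was 0.523 within anti-CD4 tumours and 0.972 within PBS tumours. For Fcgr3 they were Ccr1, a chemokine receptor of myeloid cells (0.973), Vrk1 (0.958) and Ccl8 (0.952). For Fcgr4 they included Slc15a3 (0.974) and Ctse, a cathepsin (0.969). For Fcgr1 they were the immunoproteasome subunits Psmb8 (0.949) and Psmb10 (0.946), with the hexokinase Hk3 (0.947) between them. Psmb8 is also in the interferon gamma score, and the 12 tumours include both sides of the gap in that score. For Fcer1g they were Il2rg (0.971), Tyrobp, an adaptor with an activating tyrosine motif that is also in the macrophage score (0.970), and Ncf4, a subunit of the phagocyte oxidase (0.965). C1qa and C1qb were each other's closest match, and C1qa was that of C1qc. After the other C1q chains came Siglec1, a macrophage lectin that is also in the macrophage score, for C1qa (0.957), and Tmem106a for C1qc (0.950). For C1qb, Tmem106a (0.966) and P2ry6 (0.963, called lower at edgeR adjusted p = 0.0465) came after C1qa and before C1qc (0.962). For Fcgrt they were Itm2c (0.906), Selenop (0.905) and Jag1 (0.904). Within the 6 anti-CD4 tumours these were 0.471 to 0.692, and C1qb with C1qc was at 0.662.

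Among the signalling genes downstream of these receptors, 3 of 16 tested fell and none rose, and all 16 log2 fold changes were negative, with a median of -0.23. Of all genes tested, 2.33% were called lower and 50.1% had a negative log2 fold change. Inpp5d, which encodes the phosphatase SHIP1 recruited by the inhibitory receptor, had 70.8 CPM in the mean of anti-CD4 and 89.1 CPM in that of PBS tumours (log2 fold change -0.33, SE 0.09, edgeR adjusted p = 0.0464). Vav1, a guanine nucleotide exchange factor, fell by 0.44 on the log2 scale (SE 0.11, adjusted p = 0.038), and Card9, an adaptor of myeloid receptors, by 0.57 (SE 0.16, adjusted p = 0.0499). All 3 adjusted p-values lie near the threshold.

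Of 12 other immunoglobulin receptor genes, 8 had enough counts to be tested, and 1, Fcrlb, an Fc receptor-like protein of B cells that is kept inside the cell, fell (edgeR adjusted p = 0.035). Its level was 2.76 ± 0.96 CPM in anti-CD4 and 6.06 ± 2.45 CPM in PBS tumours (SD, n = 6 each), and the log2 difference between them was -1.14 (SE 0.27). The list median was -0.54. Fcrla and Fcrl5, further Fc receptor-like genes of B cells, were at -1.13 and -0.66 and did not pass, and Fcrla is also among the B cell markers below.

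In the rest of the complement system 1 gene passed among 3 lists of 13 tested genes each, a share near the 2.33% called lower and 5.28% called in either direction among all genes. Of 15 genes of the classical and terminal pathway, 13 were tested, none was called by edgeR, 1 (Hc) stood at an unadjusted p under 0.05, and the median log2 fold change was 0.08. C1ra and C1s1, the proteases that travel with C1q, had log2 fold changes of 0.11 (SE 0.14) and 0.01 (SE 0.14). C4b had 164 ± 67.0 CPM in anti-CD4 and 139 ± 27.5 CPM in PBS tumours and C3 had 158 ± 101 CPM in anti-CD4 and 180 ± 69.8 CPM in PBS tumours (SD, n = 6 each), and neither passed. Of 13 tested regulators none was called, with 2 at an unadjusted p under 0.05, C4bp (-0.65) and Serping1, the inhibitor of the C1 proteases (0.54, edgeR adjusted p = 0.142), and a median of 0.12. Of 13 tested receptors for complement fragments and C1q, 1 fell, Lair1, an inhibitory receptor that binds collagens and C1q (14.4 ± 3.55 CPM in anti-CD4 and 23.7 ± 5.33 CPM in PBS tumours, log2 fold change -0.72, SE 0.17, edgeR adjusted p = 0.0364). The next smallest p-values belonged to genes with positive log2 fold changes that did not pass, Lrp1, an endocytic receptor (0.25, SE 0.07, adjusted p = 0.0539), and Vsig4, a complement receptor of macrophages (0.62, SE 0.22, adjusted p = 0.0977). Itgax, a chain of complement receptor 4, was at -0.95 (SE 0.33, adjusted p = 0.0981) and the list median was -0.11.

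Markers of the cells that carry these receptors were counted in the same way. Of 18 macrophage and monocyte markers none was called by edgeR, with 6 at an unadjusted p under 0.05. Their log2 fold changes were negative in 15 of the 18, with a median of -0.30. The summed level of 8 NK cell markers was 4.93 to 26.6 CPM in anti-CD4 and 17.1 to 48.2 CPM in PBS tumours, with Klra8 at 0 in all tumours. Of 7 tested NK cell markers 1, Klre1, fell (-1.14, edgeR adjusted p = 0.0186), and 6 stood at an unadjusted p under 0.05. All 7 log2 fold changes were negative, with a median of -1.23. That of 8 B cell markers was 6.39 to 9.27 CPM in anti-CD4 and 9.24 to 14.6 CPM in PBS tumours. Of 7 tested B cell markers 2 fell, Cd22 and Blk (-0.81 and -1.63), while Cd79a was at -0.01 and Pax5 at 0.19. In this list 3 stood at an unadjusted p under 0.05, and the median log2 fold change was -0.46. The summed level of 8 conventional dendritic cell markers was 27.6 to 47.0 CPM in anti-CD4 and 40.5 to 65.0 CPM in PBS tumours. Of these 8, all tested, 2 fell, Flt3 and Zbtb46 (-0.80 and -0.69), while Clec10a was at 0.32. Of the dendritic markers 4 stood at an unadjusted p under 0.05, and their median log2 fold change was -0.50. Among all genes tested 2.33% were called lower and 28% stood at an unadjusted p under 0.05. None of 6 neutrophil, 7 mast cell and basophil or 9 endothelial markers tested was called by edgeR, with 1, 0 and 3 at an unadjusted p under 0.05. Neutrophil markers summed to 283 to 512 CPM in anti-CD4 and 91.2 to 464 CPM in PBS tumours, most of it Mmp9 (means 354 CPM in anti-CD4 and 266 CPM in PBS tumours), while Ly6g, S100a8, S100a9 and Retnlg averaged under 1 CPM in both groups and 4 of the 6 tested markers had negative log2 fold changes. Mast cell markers summed to 49.7 to 137 CPM and 63.1 to 130 CPM, and endothelial markers to 389 to 607 CPM and 446 to 858 CPM, each in the same order. Most of the endothelial sum was Stab1 (means 317 CPM in anti-CD4 and 393 CPM in PBS tumours). The part of NK, B, dendritic, neutrophil, mast and endothelial cells in the levels of Fcgr2b, Fcgr3 and the other genes was not tested.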

How the data were processed

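RNA-seq of 12 tumours gave estimated counts per gene, which the authors deposited unscaled. Per the submitters' processing notes, bcl2fastq 2.20.0.422, kallisto and genome build GRCm38.p6 were used, while no annotation release, strand setting or filter is given in the sources used here. Groups follow the labels. The estimated counts were rounded, filtered with filterByExpr, scaled by TMM and tested with the quasi-likelihood test of edgeR 4.0.16 (R 4.3.3), with Benjamini-Hochberg adjustment over 17940 genes and calls at an adjusted p under 0.05. DESeq2 1.42.0 and limma 3.58.1 served as alternatives, with other scalings, filters, covariates and omitted tumours. The edgeR procedure was tested on simulated data. Log2 CPM used a prior count of 2. Exact permutation tests ran over 924 assignments, and correlations over 12 tumours used resampled permutations. Levels and word sharing used GENCODE M21 (GRCm38), promoters RefSeq (GRCm38.p6).

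The 9 genes and all lists were chosen with earlier results of these data known. Beyond the 9, the genes named are those called in a list, up to 3 per list with the smallest p, the 3 most like each of the 9, and Cd4 and markers beside results. Other genes named, such as C4b, C3, C1ra and C1s1, the transcript lengths and the split of the interferon gamma score were chosen after values were seen. Protein sequences were not used here, and 1 gene among those most like the 9 is not reported here.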

Additional observations from a re-analysis of the deposited data

Results flagged for a closer look

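Among 30 sets of 6 tumours examined, 1 tumour stood far from the rest of its group in 4, where chance alone flags about 1 in 20. Fcgr2b was at 368.7 CPM in PBS 2, against 108 to 168 CPM in the other PBS tumours. Fcgr3 was at 93.2 CPM in the same tumour, against 37.9 to 53.4 CPM in the others. These values come from 1 tumour and from genes with partly shared sequence, so they are not independent. PBS 2 was also the highest of the 12 tumours in C1qa (274 CPM), C1qb, C1qc, Fcgrt (125 CPM) and the macrophage score (6.33). The cause was not tested. The ratio of Fcgr3 to Fcgr2b reached 0.542 in anti-CD4 3 and lay between 0.444 and 0.468 in the remaining 5 of its group. The interferon gamma score was 4.26 in PBS 4, against 5.03 to 5.49 in the other PBS tumours.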

How the results depend on the processing

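Main counts were 529 genes higher and 418 lower. They were 179 and 325 with upper quartile scaling, 1337 and 1157 with DESeq2, 2809 and 3169 with limma voom and sample weights, 272 and 251 with no filter, and 378 and 705 without both anti-CD4 3 and 4. With the log2 library total as covariate edgeR called 0 higher and 5 lower (1197 and 996 at an unadjusted p under 0.05), and with the macrophage score 0 and 9 (2201 and 2404). Leaving out 1 tumour gave 29 to 1160 higher and 31 to 1480 lower, the fewest without anti-CD4 2 (29 and 33) and anti-CD4 5 (35 and 31). Same-numbered tumours did not deviate together (correlations -0.41 to 0.23), and no anti-CD4 tumour correlated best with its own number. The replicate block gave 19 higher and 14 lower, and Fcgr2b lost its call (-0.98, adjusted p 0.139).

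Fcgr2b kept its direction in all 22 alternatives and its call in 7 (adjusted p 0.00398 to 0.331). Besides the block, the call was lost with upper quartile scaling (-1.16), no filter (-1.11), the library total (-1.07), the macrophage score (-0.47) and without both anti-CD4 3 and 4 (-1.24), and leaving out 1 tumour gave -1.23 to -0.76. Calls gained were C1qa (-0.45) and C1qb (-0.51) with DESeq2, Fcgr4 with voom (-1.29), and Fcgr1 (-0.61) and Fcgr4 (-1.83) without both tumours, and Fcgr4 (-1.44) without anti-CD4 3 alone. Leaving out 1 tumour gave -1.44 to -0.83 for Fcgr4. The sign turned for Fcgrt with voom (0.053), the macrophage score (0.23) and without PBS 2 (0.065; range -0.21 to 0.065), and with the macrophage score for Fcer1g (0.024) and C1qc (0.00073). The cause was not tested. The ratio difference of 0.51 ran from 0.40 to 0.57. Over all 12 tumours 11 of 18 relations to the scores passed, and 8 to 13 in the alternatives, a count that includes interferon gamma relations across the gap. Fcgr4 and the B and NK cell markers rest on few counts.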
